A study of Mus musculus with 8 samples.

Results

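Ubxn11, Sh3bgrl3 and Ccdc21 are 3 neighbouring genes on mouse chromosome 4 that all appear in a table of 119 genes listed by the authors for a difference between Smarcad1-KO and wild type (WT) small intestine. They were picked here by name and position, as the listed genes between the start of Ubxn11 at 134102570 and the end of Ccdc21 at 134187112 (GRCm38), a stretch of 84543 bp. Because every listed gene had been selected by the authors' own KO against WT comparison on the same 8 libraries, the KO and WT values below describe the members and are not a test of a difference. RNA was sequenced from whole small intestinal tissue of male C57BL/6 mice, with 4 WT and 4 KO libraries. In the KO mice, Cre recombinase driven by the Villin promoter removed loxP-flanked exons of Smarcad1, a chromatin remodeling factor, in the intestinal epithelium, while the muscle, stromal and immune cells of the tissue keep the gene. Per the methods, 2 lines from separate ES cell clones were made and 1 of them was kept for later work. Which line gave these libraries is not named beside them. The age of the mice, and whether WT mice carried floxed alleles without Cre, are not given in the sources used here.

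The 3 genes have unrelated products. Ccdc21 is the older name of Cep85, a centrosomal protein that restrains the kinase Nek2 and binds Stil, a factor needed to build new centrioles. Sh3bgrl3 encodes a small protein of the thioredoxin fold that resembles glutaredoxins but is thought to lack their enzymatic activity. Ubxn11, also called socius, carries a UBX domain, a fold through which many proteins bind the ATPase p97, and was described as a partner of Rnd GTPases, which act on the actin cytoskeleton. Of genes related to them, the table held 0 of 20 centriole and centrosome genes, 0 of 19 genes of UBX domain proteins, p97 cofactors and Rnd GTPases, and 0 of 9 genes of the SH3BGR and glutaredoxin families. Of all 21951 annotated protein-coding genes 0.501% were listed, so that counts of 0 in lists this short carry no information about these genes.

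The order along the chromosome is Ubxn11 (134102570 to 134127593, plus strand), Sh3bgrl3 (134127406 to 134128789, minus strand) and Ccdc21 (134129858 to 134187112, minus strand), and all 3 spans equal those of GENCODE release M21. Ubxn11 and Sh3bgrl3 are transcribed toward each other and share 188 bp at 134127406 to 134127593. This shared stretch lies in the annotated 3′ UTR of both genes. Of the 12 annotated Ubxn11 transcripts, 1 reaches it. Sh3bgrl3 and Ccdc21 lie on the same strand, do not overlap and are separated by 1068 bp. Each of these genes has its own promoter, and the promoters of Ubxn11 and Ccdc21 stand at the outer ends of the group.

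The RefSeq sequence upstream of each gene (GRCm38.p6) is shown because the 3 genes start from separate promoters. Each is written 5′ to 3′ on the strand of its gene and stops before the first annotated exon, with the CCAAT box, searched as CCAAT on both strands, in capitals.
Ubxn11, chr4:134102333-134102569, plus strand: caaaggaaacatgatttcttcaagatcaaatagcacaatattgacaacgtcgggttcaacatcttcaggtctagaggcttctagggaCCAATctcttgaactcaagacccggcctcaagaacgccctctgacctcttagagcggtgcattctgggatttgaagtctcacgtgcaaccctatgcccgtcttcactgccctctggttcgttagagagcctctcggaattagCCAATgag
Sh3bgrl3, chr4:134128790-134128983, minus strand: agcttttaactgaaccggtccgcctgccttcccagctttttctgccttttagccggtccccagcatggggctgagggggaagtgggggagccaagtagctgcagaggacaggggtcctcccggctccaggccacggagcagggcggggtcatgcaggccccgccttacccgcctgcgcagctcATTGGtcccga
Ccdc21, chr4:134187113-134187335, minus strand: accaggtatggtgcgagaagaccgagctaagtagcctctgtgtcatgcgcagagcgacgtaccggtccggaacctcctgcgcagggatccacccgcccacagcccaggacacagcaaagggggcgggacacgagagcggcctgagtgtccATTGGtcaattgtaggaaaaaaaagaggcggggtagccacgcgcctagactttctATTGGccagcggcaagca

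All 3 promoters held the letters CCAAT, with 2 matches at Ubxn11, 1 at Sh3bgrl3 and 2 at Ccdc21, against 37.4% of all 32851 RefSeq promoter windows of 300 bp. Of the 88 windows of listed genes, 39.8% held CCAAT. The GC box GGGCGG was found 0, 2 and 3 times in the same order, where 35.7% of all windows and 46.6% of those of listed genes hold it. The E box CACGTG occurred once, at Ubxn11, and is present in 7.15% of all windows and 12.5% of those of listed genes. No TATA box (TATAAA) was found at any of the 3, and 13.6% of all windows and 15.9% of those of listed genes have one. The windows held 17, 22 and 28 CpG dinucleotides at Ubxn11, Sh3bgrl3 and Ccdc21, where the median window has 7. Among all windows these counts stood at percentiles 68.6, 76.9 and 85.8. These matches describe the letters of the windows, and the binding of any factor was not measured here.

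The RPKM values implied 56981717 to 78026422 mapped reads per library, of which 0.822% to 1.14% lay in the 119 listed genes. RPKM (reads per kilobase, scaled to mapped reads) in this table is per kilobase of genomic span, introns included. Of the tissue markers looked for, the table held 6 of 8 for Paneth cells, 2 of 6 for exocrine pancreas and 0 of 6 for epithelium, 0 of 5 for smooth muscle, 0 of 7 for lymphoid and myeloid cells and 0 of 5 for proliferating cells, so that the labelled tissue could be checked only through its Paneth cells. The summed level of the 6 Paneth cell genes was 2991 to 4153 RPKM in WT and 2352 to 3297 RPKM in KO, and that of the 2 pancreatic genes was 26.2 to 37.1 and 20.1 to 27.0 RPKM, with no value at 0. Their part in the values of the 3 genes was not tested. In whole tissue, fewer cells of a type and less RNA per cell cannot be told apart.

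All 3 genes had a lower mean RPKM in KO, as had 50.4% of the 119 listed genes. The difference was steep at one end of the group and shallow at the other. The ratio of mean RPKM, KO over WT, was 0.264 for Ccdc21, 0.835 for Sh3bgrl3 and 0.875 for Ubxn11. In 2 of the 3 genes, Sh3bgrl3 and Ccdc21, every KO library lay below every WT library, a separation seen in this direction in 22.7% of the listed genes (27 of 119). With median-of-ratios scaling over the listed genes, Ubxn11 separated as well and the count was 52 of 119. Since the list was made from this contrast, nothing is read from these shares.

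**Figure D1:**
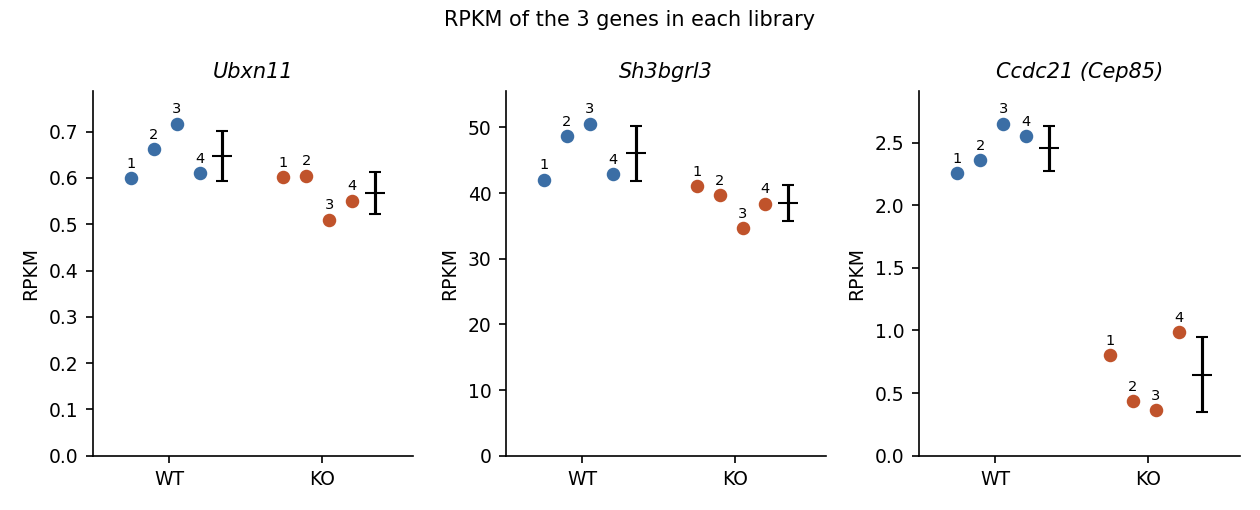
RPKM of Ubxn11, Sh3bgrl3 and Ccdc21 (y axis, from 0) in 4 WT and 4 KO libraries, with points numbered by replicate and the bar showing the mean ± SD. Ccdc21 lies between 0.363 and 0.986 RPKM in KO with a wide spread, while Sh3bgrl3 and Ubxn11 differ little between the groups.

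Ccdc21 was the member that differed most. WT libraries 1 to 4 had 2.26, 2.36, 2.65 and 2.55 RPKM, whereas the KO libraries had, in replicate order, 0.802, 0.436, 0.363 and 0.986 RPKM. The groups were far apart. WT averaged 2.45 ± 0.180 RPKM and KO 0.647 ± 0.297 RPKM (SD, n = 4 per group), a log2 difference of -2.04 ± 0.35 (SE). A ratio below 0.5 was found in 5.04% of the listed genes, and among the 60 genes lower in KO the ratio of Ccdc21 was the 3rd lowest. Behind these values stood 7359 to 10276 reads per WT library and 1265 to 4407 reads per KO library, so that counting alone gives a coefficient of variation (CV) of at most 2.81%.

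The KO libraries also differed from one another in Ccdc21. The CV was 7.33% over the WT libraries and 45.9% over the KO libraries, a CV 6.27-fold larger in KO. The SD itself was 0.180 RPKM in WT and 0.297 RPKM in KO, so the lower KO mean enters this ratio as well. The ratio of CVs was the largest among the 118 listed genes that have a CV in both groups. The next largest was 2.69 and the median was 0.760, so that the typical listed gene varied less in KO than in WT. Sh3bgrl3, with 9.17% in WT and 7.15% in KO, and Ubxn11, with 8.33% and 8.02%, showed no such widening in the same libraries.

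**Figure D2:**
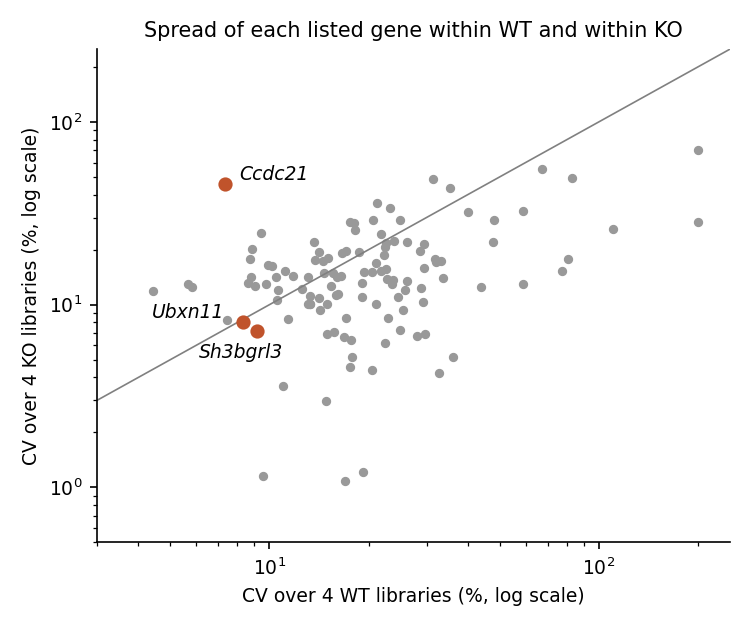
Coefficient of variation of RPKM over the 4 KO libraries (y axis, %, log scale) against that over the 4 WT libraries (x axis, %, log scale) for each listed gene with a WT value above 0, with the line of equality. Ccdc21, at 7.33% in WT and 45.9% in KO, lies farthest above the line, and Ubxn11 and Sh3bgrl3 lie close to it.

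In KO libraries 1 and 4, Ccdc21 kept 32.7% and 40.2% of its WT mean, and in KO libraries 2 and 3 it kept 17.8% and 14.8%. Smarcad1, the targeted gene on chromosome 6, was at 72.4%, 62.7%, 64.1% and 82.8% of its WT mean in KO libraries 1 to 4. These percentages cover all exons of Smarcad1, not only the loxP-flanked ones, and include cells that keep the gene. They do not measure how complete the deletion was in each library. Ccdc21 and Smarcad1 were both highest in KO library 4 and next highest in KO library 1. The summed Paneth cell genes went the other way, with 2352 and 2539 RPKM in KO libraries 1 and 4 and 2872 and 3297 RPKM in KO libraries 2 and 3. The 2 pancreatic genes did likewise, at 20.1 and 20.6 RPKM against 27.0 and 24.1 RPKM. Depth was split in the same way as Ccdc21. KO libraries 4 and 1 had 78026422 and 73863889 mapped reads, the most of the KO libraries. KO libraries 2 and 3 had 58634587 and 60920763 mapped reads. The relation between these orders, and the part of depth or of either marker set in the spread of Ccdc21, was not tested.

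Sh3bgrl3 was the most abundant of the 3 genes. WT libraries 1 to 4 had 42.0, 48.7, 50.6 and 42.9 RPKM, whereas the KO libraries had, in replicate order, 41.0, 39.7, 34.6 and 38.4 RPKM. The groups did not overlap, although the highest KO library came within 1 RPKM of the lowest WT library. WT averaged 46.0 ± 4.22 RPKM and KO 38.4 ± 2.75 RPKM (SD, n = 4 per group), with a log2 difference of -0.26 ± 0.08 (SE). Between 2921 and 4425 reads per library were behind them.

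Ubxn11 had the smallest difference. WT libraries 1 to 4 had 0.600, 0.663, 0.717 and 0.611 RPKM, whereas the KO libraries had, in replicate order, 0.602, 0.605, 0.510 and 0.551 RPKM. KO libraries 1 and 2 lay above WT library 1, so the groups overlapped. WT averaged 0.648 ± 0.0540 RPKM and KO 0.567 ± 0.0454 RPKM (SD, n = 4 per group), with a log2 difference of -0.19 ± 0.08 (SE). The values came from 777 to 1135 reads per library.

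**Figure D3:**
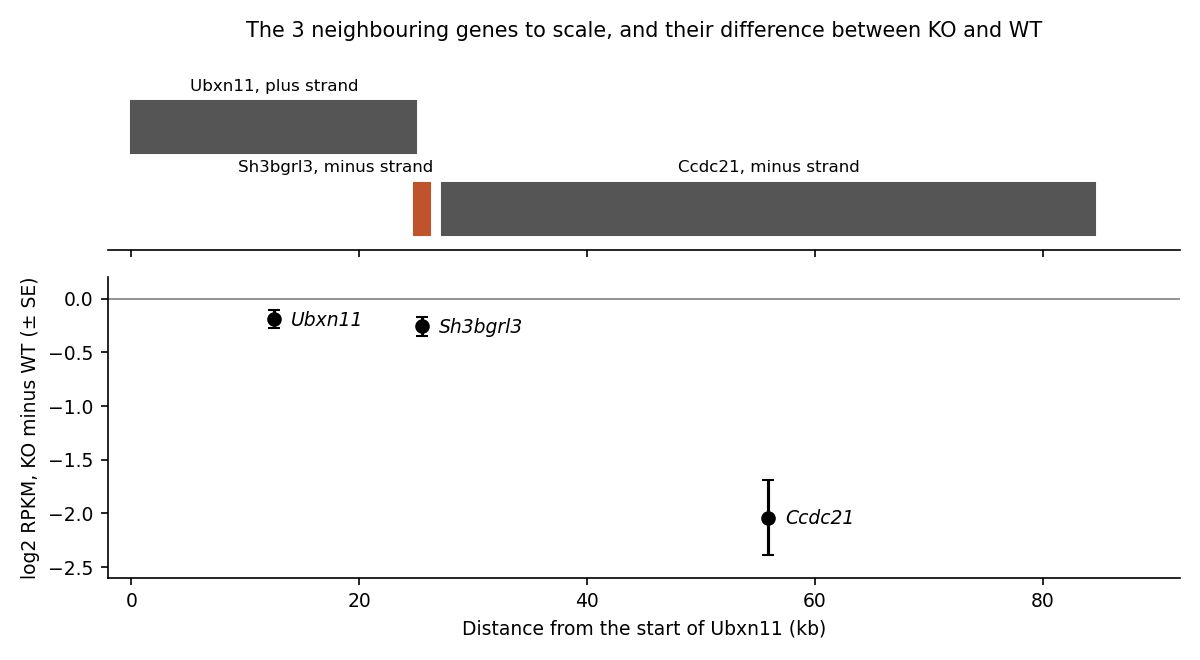
The 3 genes drawn to scale by distance from the start of Ubxn11 (x axis, kb) with their strands (top), and the difference of log2 RPKM between KO and WT with its SE over 4 libraries a group (bottom, placed at the middle of each gene). The difference is -0.19 at Ubxn11, -0.26 at Sh3bgrl3 and -2.04 at Ccdc21.

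The step between Sh3bgrl3 and Ccdc21 could be read within each library, free of the scaling by mapped reads. Ccdc21 had 2.22, 2.01, 2.17 and 2.46 reads per read of Sh3bgrl3 in WT libraries 1 to 4. In KO libraries 1 to 4 this ratio was 0.809, 0.455, 0.433 and 1.06, below WT in each. Of the reads by which the 3 genes together were lower in KO, scaled to mapped reads, Ccdc21 accounted for 89.2%, Sh3bgrl3 for 9.06% and Ubxn11 for 1.74%. Within 200 kb of the group, 17 other annotated protein-coding genes start, among them Cd52 and Crybg2 on the Ubxn11 side and Gm7534 and Catsper4 on the Ccdc21 side, and 0 of the 17 were listed. With 0.501% of all protein-coding genes listed, this count does not set the group apart from its surroundings, and the levels of the 17 were not analysed here. The nearest other listed gene on chromosome 4 was Tlr4, which encodes the receptor for bacterial lipopolysaccharide, at a distance of 67.2 Mb from the group.

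The levels of the 3 genes relative to each other depend on the length used. RPKM computed with the length of merged exons in place of the span was 77.6 ± 7.12 for Sh3bgrl3, 26.7 ± 1.95 for Ccdc21 and 3.42 ± 0.285 for Ubxn11 in WT (SD, n = 4). In KO it was 64.8 ± 4.63, 7.03 ± 3.23 and 2.99 ± 0.240 in the same order. Sh3bgrl3 stood above Ccdc21 and Ccdc21 above Ubxn11 in every library, on this scale and, in WT, on the RPKM scale as well. In KO libraries 2 and 3, however, the RPKM of Ccdc21 was below that of Ubxn11. Merged exons make up 59.3% of the span of Sh3bgrl3, 18.9% of Ubxn11 and 9.20% of Ccdc21, so RPKM understated Ccdc21 most.

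Ubxn11 and Sh3bgrl3 moved together over the libraries almost without deviation. Ubxn11 had 855, 964, 1135 and 1075 reads in WT libraries 1 to 4, which made 25.8%, 24.6%, 25.6% and 25.8% of the number of Sh3bgrl3 reads. In KO libraries 1 to 4 it had 1112, 888, 777 and 1076 reads, or 26.5%, 27.6%, 26.6% and 26.0%. The mean was 25.5 ± 0.560% in WT and 26.7 ± 0.682% in KO (SD, n = 4 each), a difference of 1.21 ± 0.441 percentage points (SE). The percentage was slightly higher in each KO library than in each WT library, at 26.0% or more against 25.8% or less. Over all 8 libraries, this group difference included, the log2 ratio of these reads had an SD of 0.0478. Counting reads alone would give 0.0521, so nothing is read from the difference.

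The 188 bp that Ubxn11 shares with Sh3bgrl3 are 25.3% of the 743 bp of the main annotated transcript of Sh3bgrl3. If the reads of Sh3bgrl3 lay evenly along this transcript, 739 to 1120 of them per library would fall in the shared stretch. The reads given to Ubxn11 differed from that number by -26.6 to 73.8 per library. The stretch is 0.751% of the span of Ubxn11, introns included, so this share and the 25.3% are not on the same basis. Merged exons of Ubxn11 cover 4742 bp, and the 1 transcript that reaches the stretch has 2014 bp. Whether these libraries kept the strand of the RNA is not given in the sources used here, and without strand the reads of both genes in the shared stretch cannot be told apart. Where along either gene the reads lay is not held by the table, so the part of the shared stretch in the level of Ubxn11 was not tested, and both the level and the difference of Ubxn11 are uncertain.

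**Figure D4:**
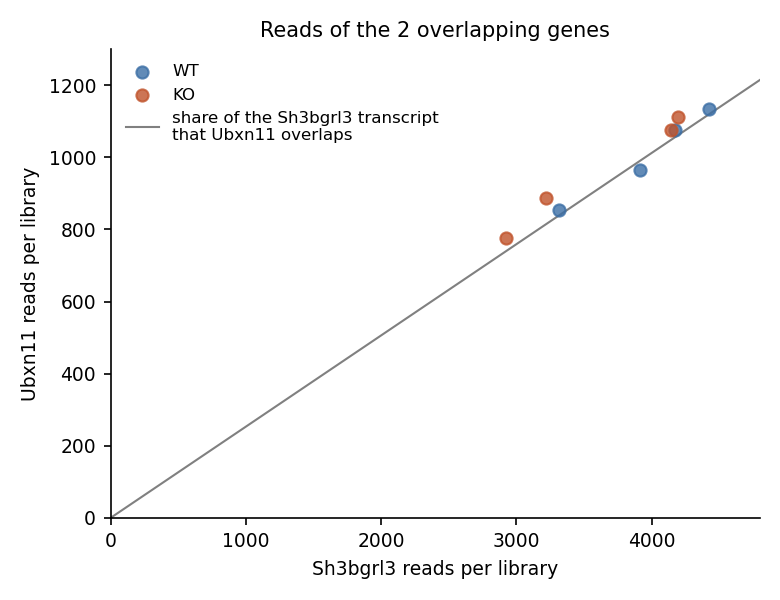
Reads of Ubxn11 (y axis) against reads of Sh3bgrl3 (x axis) in each of the 4 WT and 4 KO libraries, both axes from 0. The line has a slope of 25.3%, the share of the main Sh3bgrl3 transcript that lies inside Ubxn11, and the 8 libraries sit at 24.6% to 27.6%.

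As a measure of likeness, the SD over the 8 libraries of the log2 ratio of Ubxn11 to Sh3bgrl3 was 0.0478. Counting the reads of each gene separately would by itself give 0.0521. Among the 6328 pairs that could be formed from the 113 listed genes with a value above 0 in every library, this was the smallest SD. Next came P2rx4 with Cyp2d22 at 0.0585, on different chromosomes, and the alpha-defensin genes Defa22 with Defa26 at 0.0692, closely similar members of a multigene family. Both of these pairs were chosen after their values were seen. The only other listed genes with overlapping spans, Dlec1 and Acaa1b on chromosome 9, share 224 bp and had an SD of 0.38, at rank 1792.

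After Ubxn11, the listed genes most like Sh3bgrl3 over the 8 libraries were Fam73a, with an SD of the log2 ratio of 0.11, and Ide, which encodes insulin-degrading enzyme, with 0.12. For Ubxn11 they were, after Sh3bgrl3, the same Fam73a and Ide, at 0.13 each. The KO to WT ratio of mean RPKM was 0.824 for Fam73a and 0.835 for Ide, next to 0.835 for Sh3bgrl3. A small SD over all 8 libraries requires similar ratios, so nothing is read from this nearness. With only deviations within the groups used, P2rx4 at 0.087 and Fam161a at 0.093 came next to Sh3bgrl3 after Ubxn11. Their ratios were 1.35 and 1.68. Over the 8 libraries, the median SD to Sh3bgrl3 of all 112 genes compared was 0.44. Ccdc21, the physical neighbour on the same strand, came 100th, with an SD of 1.04. Ranked from the side of Ccdc21, which was itself widely spread, Sh3bgrl3 was 40th and Ubxn11 51st of 112. Within the groups they were 14th and 19th, at SDs of 0.46 and 0.47 where the median was 0.57. A gene with little spread of its own gets an SD near that of Ccdc21 alone, so nothing is read from these ranks.

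**Figure D5:**
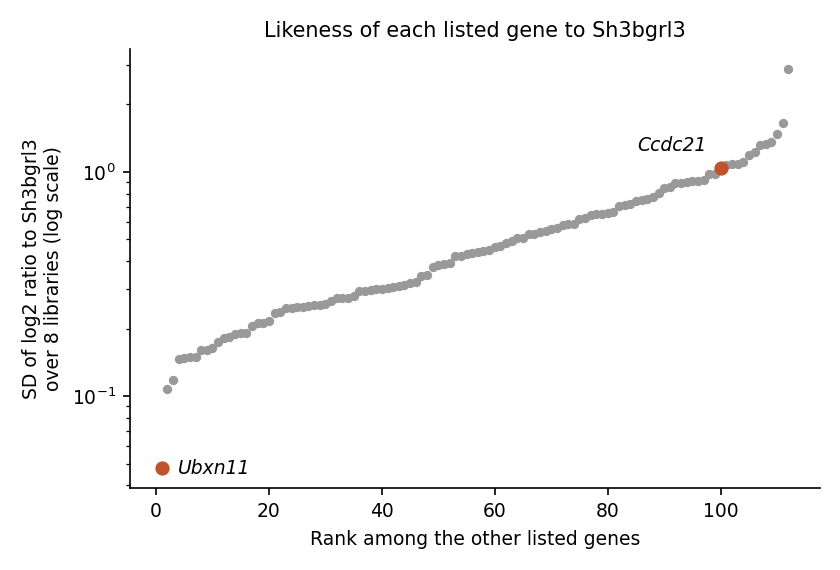
SD over 8 libraries of the log2 ratio of each of 112 listed genes to Sh3bgrl3 (y axis, log scale), in rank order (x axis). Ubxn11 stands apart at 0.0478, the next gene is at 0.11, and Ccdc21 is at rank 100 with 1.04.

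No listed gene followed Ccdc21 closely. The most like it were Camk2b, which encodes a subunit of a calmodulin-dependent kinase, with an SD of the log2 ratio of 0.75, the histone gene Hist1h2bj with 0.79 and Fgfbp3 with 0.80, where the median over 112 genes was 1.12. Camk2b and Hist1h2bj had low KO to WT ratios, of 0.202 and 0.302. A small SD over all 8 libraries favours similar ratios, so nothing is read from this. Both genes spread more in WT than in KO. Camk2b, for example, averaged 1.98 ± 1.17 RPKM in WT against 0.399 ± 0.130 RPKM in KO (SD, n = 4 per group). When only deviations within the groups were used, Slfn4 came first with 0.29, followed by Pgcp and Smarcad1 with 0.37 each, while the median was 0.57. Slfn4 and Pgcp were higher in KO, at ratios of 3.30 and 1.70. Slfn4 ordered the libraries within each group as Ccdc21 did but differed between the groups in the other direction, and Pgcp had KO libraries 2 and 3 in the reverse order.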

How the data were processed

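The authors trimmed reads with Trim Galore 0.4.1, mapped them to GRCm38 with HISAT2 2.0.1, counted uniquely mapped reads over the exons of merged transcripts in SeqMonk and tested KO against WT with DESeq2. They deposited only genes with an adjusted p-value under 0.05. The deposited table holds RPKM per library, the authors' group means and their adjusted p-values. The means and p-values were not used, and 0 other columns of libraries were left out.

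Reads were recovered as RPKM × genomic span × mapped reads, with mapped reads set to the lowest depth at which values came out whole within 0.05 of a read. This held for 100% of 939 values above 0, and depths were tested on simulated data. Levels per kilobase of merged exons divide the same reads by exon length. Counting CVs cover counting error only, while SD and SE cover the spread between libraries, which may be technical.

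Samples were grouped by title. Groups were described by mean ± SD, by the ratio of mean RPKM, and by the difference of mean log2 RPKM with its SE, with no pseudocount. No test was run, since the contrast had selected the genes. Likeness was the SD of the log2 ratio over libraries. The members, gene lists and measures were chosen with earlier results of these data known. Named genes were the members, Smarcad1, the 3 listed genes most like each member, overlapping listed pairs, neighbours within 200 kb and genes of the lists for centrioles and centrosomes, UBX domain and p97, SH3BGR and glutaredoxins, and cell type markers. Any other gene was named after its values were seen. Alternatives were medians, pseudocounts of 0.1 and 1, other scalings, a minimum mean RPKM of 0.5 and leaving out each library. Annotation came from GENCODE mouse release M21 and promoters from RefSeq (GRCm38.p6), with 250 bases before and 50 after each start and 3 of 3 members matched. Calculations used Python 3.11.15, numpy 2.4.6 and pandas 2.3.3.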

Additional observations from a re-analysis of the deposited data

Results flagged for a closer look

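In 8 groups of 4 libraries examined (the RPKM of the 3 genes and the reads of Ubxn11 as a percentage of those of Sh3bgrl3, each in WT and in KO), 1 had a library apart by Dixon's criterion for 4 values, where chance gives about 1 in 20 in each single group. The percentage in WT library 2 was 24.6% against 25.6% to 25.8% in the other WT libraries, a ratio of gap to range of 0.878. Over the 8 libraries, the log2 ratio of these reads had an SD of 0.0478, where counting alone would give 0.0521.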

How the results depend on the processing

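Of 78 recalculations, 73 stayed within the spread between replicates or, for counts, within 1.5 times, and none changed direction. Geometric means of RPKM + 1 gave a KO to WT ratio of 0.471 for Ccdc21 and 0.951 for Ubxn11, since this pseudocount exceeds or nears their level. Median-of-ratios scaling over the listed genes, which shifted the median listed gene by -0.15 (log2), gave 0.788 for Ubxn11, 0.752 for Sh3bgrl3 and 0.237 for Ccdc21. Above a minimum mean RPKM of 0.5, groups were apart in either direction in 50, against 85 of all 119, because fewer genes enter. Leaving out 1 library gave ratios of 0.217 to 0.302 for Ccdc21, 0.854 to 0.908 for Ubxn11 and 0.812 to 0.863 for Sh3bgrl3, and a difference of 0.896 to 1.44 percentage points in the reads of Ubxn11 relative to Sh3bgrl3. Ubxn11 ranked first in likeness to Sh3bgrl3 in all 10 recalculations. No paired analysis was possible because the labels do not say whether equal replicate numbers mark paired mice, and these results come from no test. Depth limited Ubxn11 most, with 777 reads in its lowest library.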
